A study of Mus musculus with 3 samples.

Results

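The complement components and receptors examined here were 9 genes taken by symbol, the components Cfp, C3, Cfb, C1qa, C1qb and C1qc and the receptors C3ar1, C5ar1 and Cr2, out of 32285 genes in the count tables. All 9 were listed, and none of them served to sort cells into classes. Peripheral blood (PB) leukocytes of wild type (WT) BalbC mice were profiled by droplet scRNA-Seq in 3 libraries, 1 from naive mice and 1 each from mice bearing BBC2 leukemia at day 11 (D11) and day 14 (D14). The transplanted BBC2 cells are a single line, derived from a primary mouse leukemia driven by the fusion kinase BCR-FGFR1, and model stem cell leukemia/lymphoma (SCLL) syndrome with pro-B-like blasts in hosts with an intact immune system. Red cells had been lysed and dead cells removed. The labels do not say how many mice were in each library, and conditions and libraries cannot be told apart.

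Complement is a cascade of plasma proteins that tags targets for uptake, draws in leukocytes and can lyse cells. The classical pathway starts when C1q, built from the C1qa, C1qb and C1qc chains, binds antibody or cell debris, while the alternative pathway amplifies deposited C3b through factor B (Cfb) under stabilization by properdin (Cfp). Cleavage of C3 and C5 releases the peptides C3a and C5a, which are read by C3ar1 and C5ar1, and Cr2 (CD21) binds C3 fragments on B cells. The liver makes most plasma complement, but myeloid cells also transcribe several of its genes, and C1q is a typical product of tissue macrophages.

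C3 lies at chr17:57203970-57228136 on the minus strand (GRCm38), with up to 41 exons. The bases before its start site are shown because C3 was the component with the most UMIs here. It was also the only one of the 7 members with a listed promoter whose upstream window held a C/EBP-type motif. The window of Cr2, the member found in B-like cells, is set beside it. Both were taken from RefSeq (GRCm38.p6), run 5′ to 3′ on the minus strand at chr17:57228137-57228386 and chr1:195176720-195176969, and capitals mark the motif TTGCNNAA.
C3: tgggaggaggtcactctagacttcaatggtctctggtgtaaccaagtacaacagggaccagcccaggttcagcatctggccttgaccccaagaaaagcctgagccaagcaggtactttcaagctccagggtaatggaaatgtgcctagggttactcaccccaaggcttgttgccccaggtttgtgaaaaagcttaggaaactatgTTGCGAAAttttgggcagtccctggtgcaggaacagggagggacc
Cr2: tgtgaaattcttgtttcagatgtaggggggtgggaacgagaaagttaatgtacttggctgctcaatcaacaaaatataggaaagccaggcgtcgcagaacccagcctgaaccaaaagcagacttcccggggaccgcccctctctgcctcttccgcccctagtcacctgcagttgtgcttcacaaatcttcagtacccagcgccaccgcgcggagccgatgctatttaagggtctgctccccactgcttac
The motif in C3, TTGCGAAA, began 45 bases before the start site, and Cr2 held none. Over both strands and 250 upstream bases, TTGCNNAA was found in 9.56% of 32851 promoters and in 1 of the 7 members whose promoter was listed. No promoter was listed for C1qa and Cfb, so these were not searched. GAGGAA (PU.1 type) was in 23.3% of promoters, with C1qb and C1qc among them, and TGANTCA (AP-1 type) was in 6.75%, with C3ar1 among them. GGG followed after any 4 bases by TCC (NF-kB type) was in 16.5%, among them C3, C3ar1, C1qb, C1qc and Cr2, and a repeat of GAAA after any 2 bases (ISRE type) was in 2.98% and in 0 members. These matches describe letters only.

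The libraries held 5386 to 9337 barcodes and 30362408 to 65861863 UMIs, and 3811 naive, 4567 D11 and 4414 D14 barcodes had 200 or more genes and no more than 10% of their UMIs from mitochondrial genes. Each was given to the class with the most detected of 10 marker genes, with at least 3 and a lead of at least 2 over the next class, which left 6.53% to 7.53% of barcodes without a class. Neutrophil-like cells numbered 1179, 1527 and 1309 in the naive, D11 and D14 libraries, classical monocyte-like (cMono-like) cells 168, 267 and 145, nonclassical monocyte-like (ncMono-like) cells 135, 215 and 641, and B-like cells 414, 283 and 47. Libraries shared 12 to 18 barcode sequences per pair. Hemoglobin genes took 11.2%, 55.9% and 22.5% of the UMIs of the naive, D11 and D14 libraries. Levels are UMIs of a gene per 1000000 UMIs of the summed class (CPM), and every interval in brackets is a 95% interval, exact unless stated, for counting error only, since there was 1 library per condition and therefore no test.

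The members fell into separate patterns by cell class. C3, Cfb and Cfp were found in monocyte-like cells, C3 and Cfp also in neutrophil-like cells, C5ar1 lay mainly in neutrophil-like cells, and Cr2 lay in B-like cells. C3ar1 was scarce and the C1q genes were close to absent. Between naive and D14, C3 was higher in each of the 3 myeloid classes, Cfb was higher in ncMono-like cells, and Cr2 was lower in B-like cells.

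**Figure D1:**
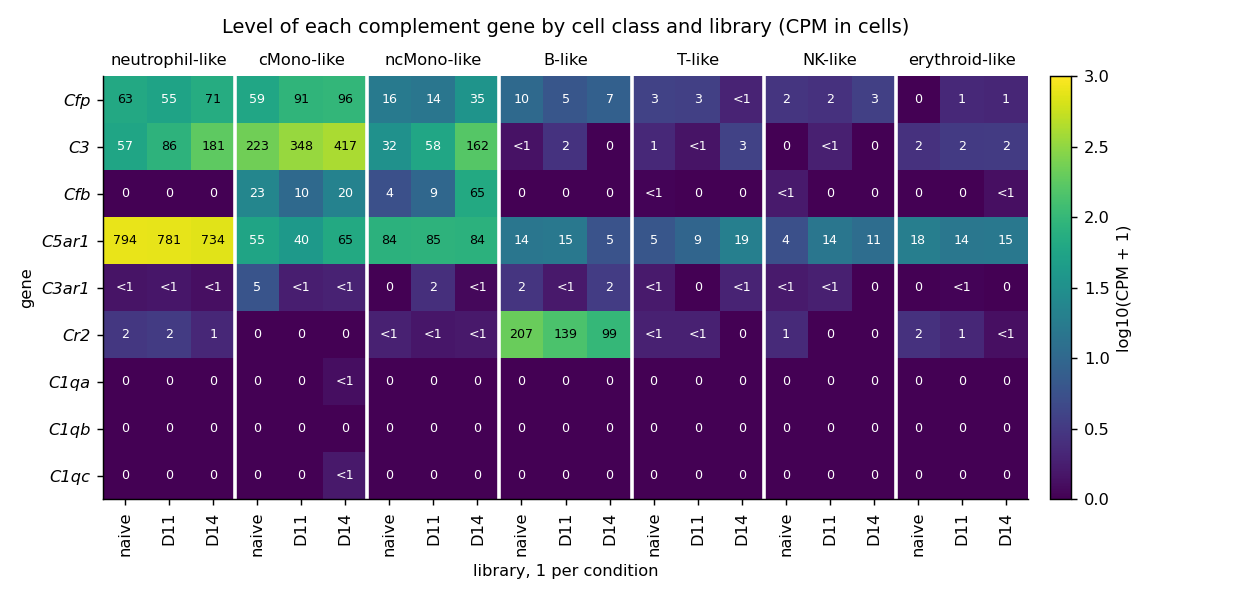
Each cell gives the CPM of a gene (rows) in the sum of a class and library (columns), with color on a log10(CPM + 1) scale. C5ar1 stood at 734 CPM or more in neutrophil-like cells of all 3 libraries, Cr2 stood out in B-like cells, and the C1q rows were at or near 0.

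C3, the central component on which all activation routes converge, had its highest level in cMono-like cells. There it measured 223 CPM in naive blood [204 to 244], 348 at D11 [329 to 368] and 417 at D14 [395 to 440]. In neutrophil-like cells it measured 56.6, 86.2 and 181 CPM, and in ncMono-like cells 31.7, 57.9 and 162 CPM. The order naive, D11, D14 was the same in these 3 classes, and the intervals of the libraries did not overlap in any of them.

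The D14 over naive ratio of C3 was 1.87 in cMono-like cells [1.68 to 2.07], 3.20 in neutrophil-like cells [2.78 to 3.68] and 5.10 in ncMono-like cells [3.66 to 7.32]. By D11 the ratios were already 1.56 [1.404 to 1.73], 1.52 [1.31 to 1.78] and 1.83 [1.25 to 2.74] in the same order. On the log2 scale the change of cMono-like cells minus that of ncMono-like cells was -1.45 [-1.95 to -0.95, from the counts by normal approximation], so the ncMono-like change was the larger beyond counting error. The level of cMono-like cells was 7.05 times that of ncMono-like cells in naive blood [5.02 to 10.2] and 2.58 times at D14 [2.38 to 2.80].

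**Figure D2:**
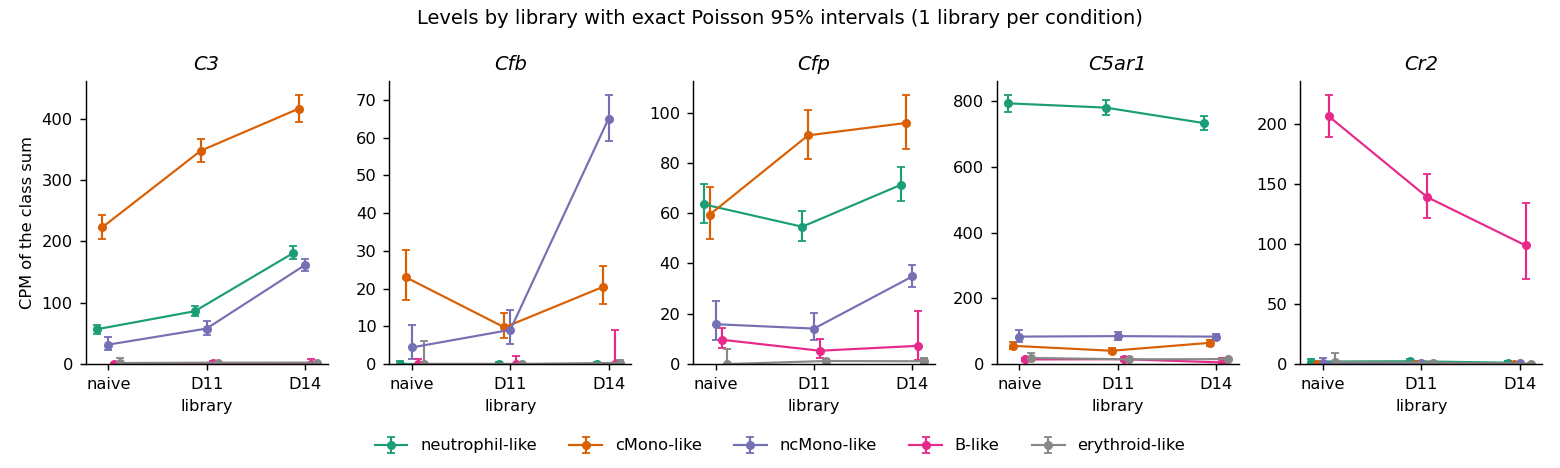
The CPM of 5 members in the sum of each class (colored lines) is plotted against library, with bars for the exact Poisson 95% interval of 1 library. C3 was higher at D14 in all 3 myeloid classes, Cfb of ncMono-like cells went from 4.40 CPM in naive blood to 65.1 at D14, and C5ar1 lay between 734 and 794 CPM in neutrophil-like cells.

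C3 was also found in more cells. For thinned shares, cells with at least 2000 UMIs were thinned to 2000 and shallower cells were left out. C3 was then detected in 4.51% of ncMono-like cells in naive blood [1.67 to 9.56], 11.3% at D11 [7.35 to 16.3] and 25.9% at D14 [22.5 to 29.5]. Unthinned and over all cells of the class, the shares were 21.5%, 31.2% and 63.2% at median depths of 8021, 8102 and 9441 UMIs. The thinned shares were 33.5%, 44.0% and 57.2% in cMono-like cells and 9.34%, 11.6% and 25.5% in neutrophil-like cells. Neutrophil-like cells were the shallowest of these 3 classes, at median depths of 3505, 3342 and 3789 UMIs. Erythroid-like cells, which should lack C3, served as a gauge of free RNA in the droplets. After thinning, 0 of 63 naive cells (which allows up to 4.76%), 0.519% at D11 and 0.196% at D14 carried a C3 UMI, and unthinned these shares were 1.59%, 1.55% and 1.04% at median depths of 9525, 11194 and 6061.5 UMIs. At D11 and D14 the thinned shares of all 3 myeloid classes lay above the thinned erythroid-like shares, whereas the naive ncMono-like share of 4.51% lay under the 4.76% that 0 of 63 cells allows. On summed levels, C3 measured 31.7 CPM in naive ncMono-like cells and 1.67 CPM (1 UMI) in naive erythroid-like cells. This ratio was 18.9 [3.19 to 768]. Unthinned, 0.594% of the 1347 naive T-like cells had a C3 UMI, at a median depth of 8963 UMIs. The part of free RNA in the naive ncMono-like level was not tested. The tenth of ncMono-like cells richest in C3 held 58.3% of its UMIs in naive blood and 38.6% at D14, when 24.8% of the cells had 3 or more. Such a share depends on the UMIs per cell, 0.267 in naive blood and 1.71 at D14, so these shares do not compare how evenly C3 was spread.

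**Figure D3:**
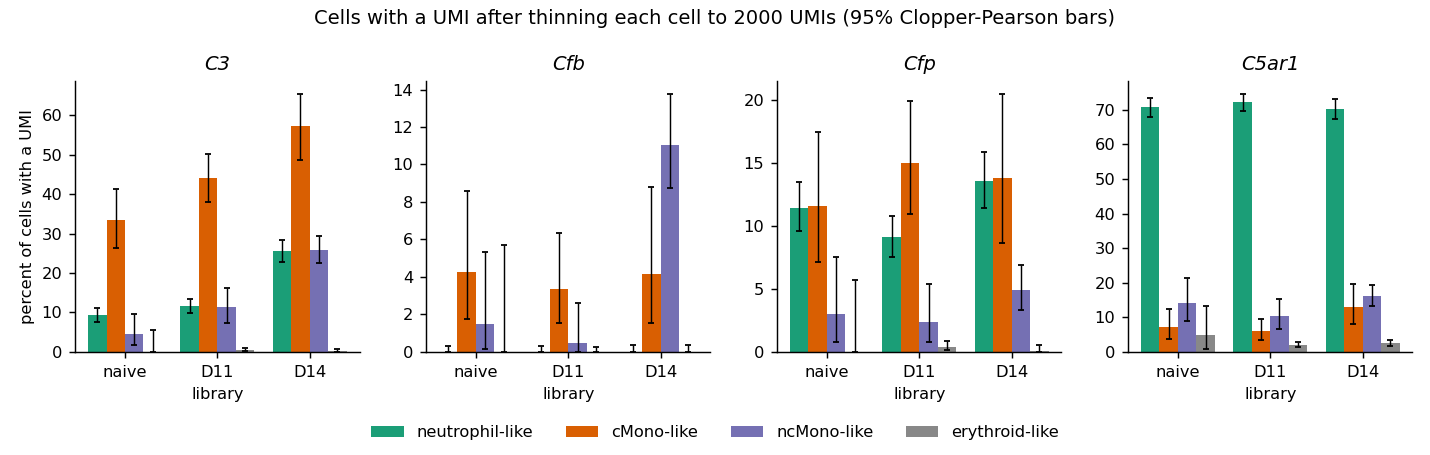
Bars give the percent of cells with at least 1 UMI of a gene after thinning to 2000 UMIs (shallower cells left out), by class and library, with 95% Clopper-Pearson bars. Erythroid-like cells serve as a gauge of free RNA, and their C3 share was 0.519% at D11 and 0.196% at D14.

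Neutrophil-like cells differed in makeup between the libraries. Cells with at least 3 UMIs of the granule genes Ltf, Camp and Ngp, which mark less mature neutrophils, made up 1.95% of the class in naive blood, 15.98% at D11 and 44.2% at D14. Among cells below that number, C3 measured 46.3 CPM [40.01 to 53.3], 55.2 [48.4 to 62.7] and 120 [106 to 135]. Among cells at or above it, C3 measured 260 CPM [196 to 339] in 23 naive cells, 163 [144 to 183] in 244 D11 cells and 216 [202 to 231] in 578 D14 cells. The D14 level of the granule-rich cells thus lay within the naive interval, while that of the other cells lay above it. The cut is an absolute number of UMIs, so deeper cells pass it more readily, and depth was not matched between the groups. This split was chosen after the data were seen, and the part of the makeup in the whole-class ratio was not tested.

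Within the ncMono-like class, the summed level of the 10 cMono markers was 1061 CPM in naive blood, 1253 at D11 and 1465 at D14, against 7244 to 8583 CPM in cMono-like cells. Among ncMono-like cells with at most 1 cMono marker detected, C3 measured 6.74 CPM in 25 naive cells (1 UMI), 50.1 in 26 D11 cells and 150 in 30 D14 cells [99.1 to 219]. The D14 interval of these cells held the level of the whole class. Of the 10 tissue macrophage markers, Cd5l, Cd163 and Timd4 were at 0 in ncMono-like cells of all 3 libraries. The list summed to 66.9, 112 and 222 CPM in them, of which Hmox1 gave 37.8, 72.0 and 197 CPM. At D14 Marco gave 16.8 CPM and Mertk 2.36 CPM, both at 0 before. Axl went the other way (7.92, 3.52 and 0.148 CPM), and Slc40a1 measured 20.2, 36.2 and 4.13 CPM. In cMono-like cells the list summed to 104, 53.2 and 61.5 CPM, with Mertk at 0.900, 0.540 and 13.9 CPM. In neutrophil-like cells the same list summed to 673, 537 and 275 CPM, of which Slc40a1 alone gave 613, 478 and 231 CPM and Hmox1 60.3, 58.3 and 42.6 CPM. These sums lay above those of ncMono-like cells in each library, but at D11 and D14 only through Slc40a1. The macrophage gate was passed by 0 barcodes. In ncMono-like cells a median of 9, 9 and 10 of the 10 ncMono markers was detected in the naive, D11 and D14 libraries. A lead of 2 for the macrophage list was out of reach for cells with that many, so this 0 does not describe their macrophage transcripts.

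Factor B, the protease subunit of the alternative pathway convertase, is encoded by Cfb at chr17:34856374-34862518, within the class III region of the MHC. It overlaps Gm20547 and Mir6972 on the same strand, so its counts are uncertain in that respect. In ncMono-like cells Cfb had 5 UMIs in naive blood (4.40 CPM [1.43 to 10.3]), 18 at D11 (9.06 CPM) and 441 at D14 (65.1 CPM [59.1 to 71.4]). The D14 over naive ratio was 14.8 [6.29 to 45.8] and the D14 over D11 ratio 7.18 [4.49 to 12.2], whereas D11 over naive was 2.06 with an interval of 0.737 to 7.096. The larger step thus lay between D11 and D14.

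Cfb behaved otherwise in cMono-like cells, where it measured 23.0 CPM in naive blood, 9.71 at D11 and 20.4 at D14. The D11 over naive ratio was 0.423 [0.268 to 0.661] and the D14 over naive ratio 0.889 [0.608 to 1.31]. The 2 monocyte classes therefore exchanged places: in naive blood cMono-like cells stood 5.22 times above ncMono-like cells [2.10 to 16.8], and at D14 ncMono-like cells stood 3.19 times above cMono-like cells [2.46 to 4.19]. At D11 the classes did not differ beyond counting error (1.07 [0.593 to 2.01]). In neutrophil-like cells Cfb had 0 UMIs in each library, which allows at most 0.488 CPM at D14.

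Cfb was detected in 31.2% of ncMono-like cells at D14, and in 11.1% [8.72 to 13.8] after thinning, against 1.504% of naive cells and 0.469% at D11, which are 2 cells and 1 cell. A single cell held up to 13 UMIs, and the tenth of cells richest in Cfb held 60.5% of them. Of the 200 ncMono-like cells with Cfb at D14, 69.5% also had C3 [62.6 to 75.8], against 60.3% [55.6 to 64.9] of the 441 without. The median depths of these groups were 11026 and 8828 UMIs, and the part of depth in this gap was not tested. Among cells with at most 1 cMono marker Cfb had 0 UMIs in naive blood, 1 at D11 and 7 at D14 (39.0 CPM [15.7 to 80.3]).

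The classes that supplied these transcripts differed between the libraries. ncMono-like cells supplied 8.06% of the Cfb UMIs of naive blood [2.67 to 17.8], 30.0% at D11 [18.8 to 43.2] and 79.0% at D14 [75.4 to 82.3], while they held 4.30%, 5.38% and 13.2% of all UMIs of kept barcodes. For C3, ncMono-like cells supplied 4.17%, 5.52% and 28.1%, and cMono-like cells 57.4%, 61.9% and 34.6%. At D14 C3 was thus split nearly evenly between the 3 myeloid classes. These shares combine the number of cells and their level.

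**Figure D4:**
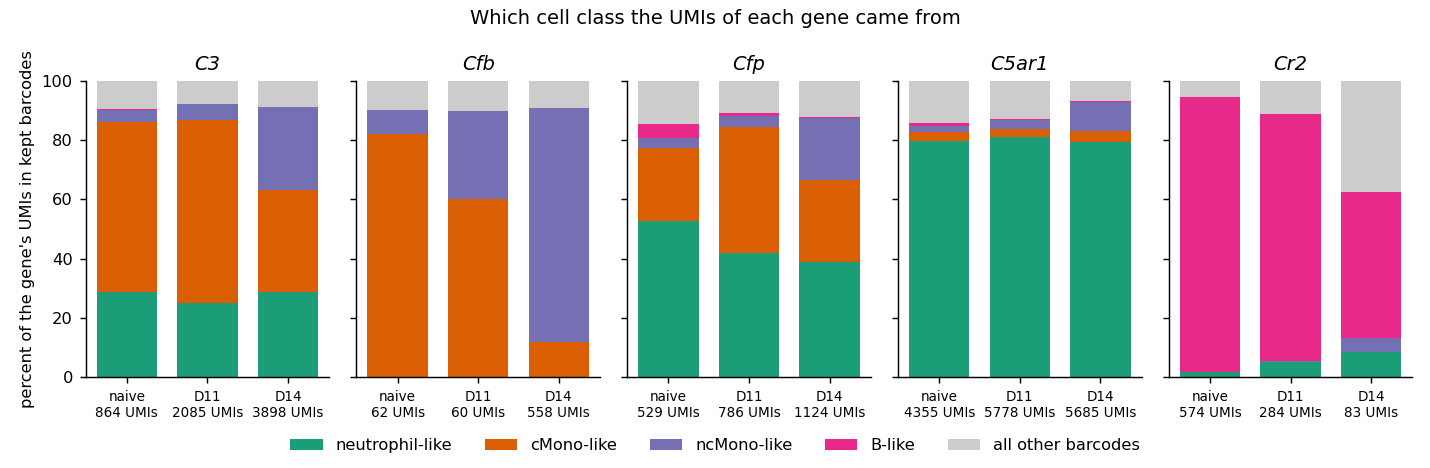
Stacked bars give the percent of a gene's UMIs in kept barcodes that lay in each class, by library, with the number of UMIs under each bar. The ncMono-like part of Cfb went from 8.06% in naive blood to 79.0% at D14, and that of C3 from 4.17% to 28.1%.

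Properdin, the stabilizer of the alternative pathway convertase, is encoded by Cfp at chrX:20925454-20931555. In the naive library it was level between neutrophil-like cells (63.5 CPM [56.3 to 71.4]) and cMono-like cells (59.4 CPM [49.7 to 70.5]), with a ratio of 1.07 [0.866 to 1.32]. In cMono-like cells it then measured 90.9 CPM at D11 and 95.9 at D14, with a D14 over naive ratio of 1.61 [1.31 to 1.99]. In ncMono-like cells it measured 15.8, 14.1 and 34.8 CPM, with a ratio of 2.20 [1.36 to 3.77]. In neutrophil-like cells it measured 63.5, 54.6 and 71.2 CPM, and the ratio of 1.12 spanned 1 [0.963 to 1.31]. Thus cMono-like cells stood above neutrophil-like cells at D11, by 1.67 times [1.43 to 1.94], and at D14, by 1.35 times [1.16 to 1.56]. After thinning, the detected share in ncMono-like cells was 3.01% [0.825 to 7.52] and 4.90% [3.35 to 6.88] in the naive and D14 libraries, intervals that overlap.

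C5ar1, the receptor for the chemoattractant C5a, lies at chr7:16246743-16259540. In neutrophil-like cells it measured 794 CPM in naive blood [768 to 821], 781 at D11 [759 to 804] and 734 at D14 [713 to 756]. The D14 over naive ratio was 0.924 [0.884 to 0.966], but with TMM scaling the log2 ratio was 0.0321 or 0.0749 in place of -0.11, which turns the direction. The median log2 ratio of all 6027 genes counted in this class was -0.19. Neutrophil-like cells held 79.9%, 81.2% and 79.4% of the C5ar1 UMIs, and the thinned share of cells was 70.7%, 72.1% and 70.2%.

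Within neutrophil-like cells, C5ar1 measured 816, 875 and 908 CPM among those low in granule genes and 360, 549 and 635 CPM among those rich in them, so that both groups were higher at D14 while the whole class was not. In ncMono-like cells C5ar1 stayed at 83.6, 85.1 and 83.5 CPM, a D14 over naive ratio of 0.999 [0.803 to 1.26]. In cMono-like cells it measured 55.4, 40.5 and 64.6 CPM. The D11 over naive ratio there was 0.731 [0.572 to 0.935], and the D14 over naive ratio of 1.17 spanned 1 [0.930 to 1.47]. C5ar1 was low in T-like (5.29, 8.62 and 18.7 CPM) and NK-like cells (4.45, 14.1 and 11.0 CPM), at levels that did not exceed the 18.4, 14.3 and 14.9 CPM of erythroid-like cells beyond counting error, and it was at 1.16 CPM in proB-like cells of D14. The part of free RNA in these low levels was not tested.

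C3ar1, the receptor for C3a at chr6:122847138-122856161, had 46, 23 and 10 UMIs in the kept barcodes of the naive, D11 and D14 libraries. Of these, 17, 8 and 1 lay in basophil-like cells, of which there were only 12, 15 and 3, which gave 249 CPM [145 to 399], 101 [43.6 to 199] and 24.8 [0.629 to 138]. In cMono-like cells it had 11, 3 and 3 UMIs, a D14 over naive ratio of 0.187 [0.0336 to 0.709]. In ncMono-like cells it had 0, 3 and 1 UMIs and in neutrophil-like cells 2, 3 and 2. The gene was thus near the limit of detection outside basophil-like cells.

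Cr2, the C3d receptor and B cell coreceptor at chr1:195136811-195176716, measured 207 CPM in naive B-like cells [189 to 225], 139 at D11 [122 to 158] and 98.9 at D14 [71.0 to 134]. The D14 over naive ratio was 0.479 [0.340 to 0.659] and the D11 over naive ratio 0.674 [0.576 to 0.787]. The D14 value rests on 41 UMIs in 47 cells, under the minimum of 50 cells set for the other classes, and with a lead of only 1 marker in the gate it was 52.2 CPM. After thinning, Cr2 was detected in 27.0% [22.7 to 31.7], 22.4% [17.5 to 28.0] and 21.7% [10.9 to 36.4] of B-like cells, intervals that overlap. In proB-like cells, which numbered 3, 107 and 691, Cr2 measured 1.23 CPM at D11 and 0.884 at D14, with intervals that overlapped those of erythroid-like cells (1.13 and 0.315 CPM).

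The C1q chains are encoded side by side at chr4:136880129-136898803, C1qb first, then C1qc and C1qa, all on the minus strand. They had 0 UMIs in the naive and D11 libraries, left-out barcodes included. Among kept barcodes, 0 of 3811 and 0 of 4567 allow up to 0.0787% and 0.0657% of barcodes with a UMI at this depth, which does not limit the share of cells that express the genes. At D14 there were 4 UMIs in 2 of 9337 barcodes. One was a cMono-like barcode with 1 UMI of C1qa and 2 of C1qc among 40820, in which 10 cMono markers and 2 macrophage markers were detected, and the other was a proB-like barcode with 1 UMI of C1qb among 40648. In the 641 ncMono-like cells of D14 all 3 genes were at 0, and 0 UMIs in 6778038 allow at most 0.443 CPM. C1q was therefore not detectable in ncMono-like cells at this depth.

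The changes of the members in ncMono-like cells were set against those of all genes. Of 7914 genes that averaged 10 CPM or more over the libraries, 3.07% stood above naive by 2-fold or more at D14 (with 1 CPM added to both levels) and 3.46% were lower, and the median log2 ratio was 0.01. Of the 4 members with that mean, 3 were higher (Cfb, C3 and Cfp) and 0 lower. Cfb, at 4.40 and 9.06 CPM in the naive and D11 libraries, reached that mean only through its D14 level, so its place in the count is partly fixed by the filter. Cfb lay at the 99.8th percentile, C3 at the 99.3rd and Cfp at the 97.4th, with C5ar1 at the 48.7th. The 5 other members had lower means and are not in this count, and no test stands behind it. Between D11 and D14 the same 3 members were higher, beside 1.96% of genes.

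In neutrophil-like cells 7.28% of 6027 genes were higher at D14 by 2-fold or more and 8.98% lower, and 1 of 3 members, C3, was among them, at the 97.3rd percentile. In cMono-like cells 4.29% of 7924 genes were higher and 3.96% lower, and 0 of 4 members were in either group. C3 lay at the 94.5th percentile and Cfp at the 90.04th. Between naive and D11, Cfb was the 1 member of 4 lower by 2-fold or more in cMono-like cells, beside 1.15% of genes. In B-like cells 5.63% of 8060 genes were lower at D14, and both members that averaged 10 CPM or more were among them, Cr2 at the 4.95th percentile and C5ar1 with 36 UMIs in naive blood and 2 at D14, a ratio of 0.347 that spans 1 [0.0404 to 1.35]. C5ar1 measured 13.9, 14.7 and 4.83 CPM in B-like cells of the naive, D11 and D14 libraries. It reached the mean of 10 CPM only through naive and D11, so its place in the count is partly fixed by the filter. At 13.9 CPM in naive B-like cells, C5ar1 did not exceed the 18.4 CPM of naive erythroid-like cells, and the part of free RNA in it was not tested.

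**Figure D5:**
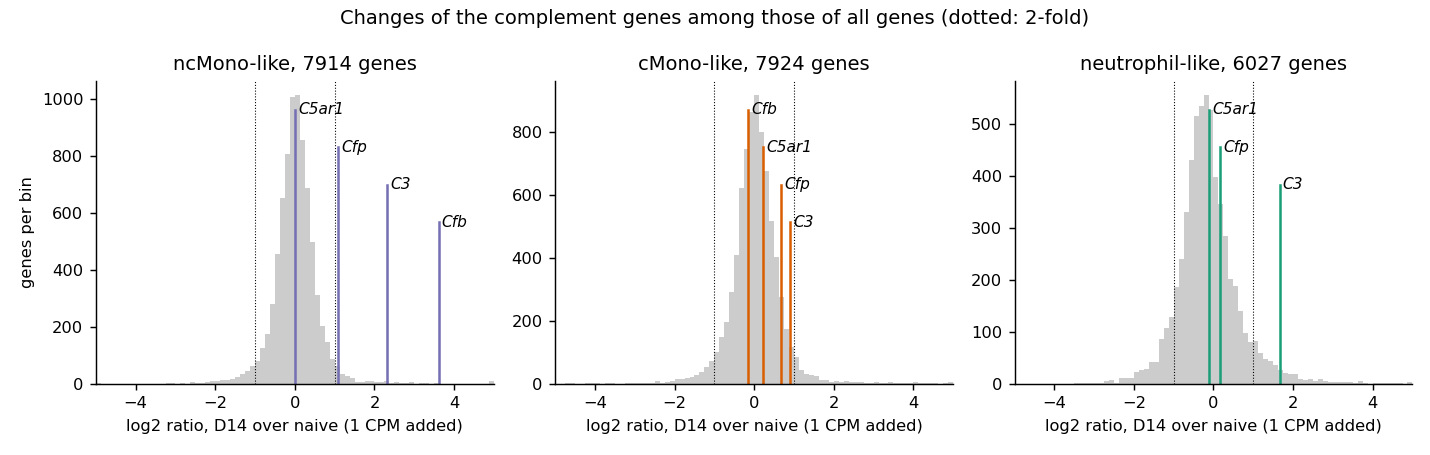
Grey histograms give the log2 ratio of D14 over naive (1 CPM added, values beyond 5 placed in the end bins) of all genes that averaged 10 CPM or more, in 3 classes, with vertical lines for the members and dotted lines at 2-fold. In ncMono-like cells Cfp, C3 and Cfb lay beyond the upper dotted line, in neutrophil-like cells only C3 did, and in cMono-like cells no member did.

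Of the 45 other complement genes listed by hand (classical, lectin, alternative and terminal components, regulators and receptors), 11 reached 50 CPM in some class and library and 3 had 0 UMIs. None of the 10 classical (C1q genes included) or 7 terminal genes reached 10 CPM, C2, C4b and Hc among them. In ncMono-like cells 8 of the 45 averaged 10 CPM or more, of which 0 were higher by 2-fold or more, beside the 3.07% of all genes. Colec12, a scavenger receptor of the collectin family, was lower by more than 2-fold. In neutrophil-like cells 7 of the 45 averaged as much, of which 1 was higher (Cd55) and 2 lower (C5ar2 and Itgax), beside 7.28% and 8.98% of all genes. In cMono-like cells 1 of 9 was higher (Fcnb) and 0 lower, beside 4.29% and 3.96% of all genes. With so few genes these counts are not read as a result. The share of granule-rich cells in the neutrophil-like class differed between the libraries, and its part in the changes of these genes was not tested.

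Colec12 measured 1354, 601 and 536 CPM in ncMono-like cells, with a D14 over naive ratio of 0.396 [0.373 to 0.421], and 662, 499 and 501 CPM in cMono-like cells. It was thus lower in ncMono-like cells at both D11 and D14, by a ratio of 0.444 at D11 [0.412 to 0.479].

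The membrane regulator Cd55, which dissociates the C3 convertase, measured 8.22, 32.5 and 69.9 CPM in neutrophil-like cells, a ratio of 8.502 [6.04 to 12.3], and 582, 545 and 369 CPM in B-like cells (0.634 [0.533 to 0.749]). The D14 level of B-like cells rests on 47 cells. Cd46 measured 64.2, 51.6 and 42.4 CPM in neutrophil-like cells. These are levels of the whole neutrophil-like class, and were not split by granule genes. The regulator Cr1l measured 150, 138 and 130 CPM in neutrophil-like cells and 124, 105 and 97.5 CPM in ncMono-like cells, and Cd59a reached 53.6 CPM in naive erythroid-like cells.

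Among receptor genes, Itgax, which encodes a subunit of complement receptor 4, measured 66.9, 43.6 and 12.2 CPM in neutrophil-like cells (0.182 [0.139 to 0.236]) and 69.5, 173 and 126 CPM in ncMono-like cells (1.81 [1.44 to 2.31]). The directions differed between these classes, and the part of the makeup of the neutrophil-like class in this was not tested. Itgam, a subunit of complement receptor 3, measured 875, 871 and 1026 CPM in neutrophil-like cells and 412, 432 and 412 CPM in ncMono-like cells, and its partner Itgb2 measured 344, 435 and 460 CPM and 482, 567 and 596 CPM. Cd93 measured 45.0, 63.7 and 83.5 CPM in cMono-like cells and 22.0, 14.1 and 4.83 CPM in B-like cells. In B-like cells its D11 over naive ratio of 0.639 spanned 1 [0.380 to 1.05]. The D14 level there lay under the 7.24 CPM that the floor of 3 counts gives in that sum. The highest level of Cd93 was in proB-like cells, with 79.0 CPM at D11 and 99.6 at D14. C1qbp, a mitochondrial protein that binds C1q, reached 307 CPM in proB-like cells at D11. In B-like cells it measured 29.8, 38.2 and 94.1 CPM, a D14 over naive ratio of 3.16 [2.09 to 4.70].

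The genes most like each member in level were found over the 18 sums of 6 classes and 3 libraries, by Pearson's r of log2(CPM + 1) among 6003 genes. The classes were those with at least 50 cells in each library, which left out B-like and basophil-like cells. The sums share libraries and classes, so r is only a description. C5ar1 was most like Clec4d (r = 0.985), Cd300lf (0.981) and Trem1 (0.977), surface receptors of myeloid cells. C3 was most like Snx24, Clec4a2 and Lyz2 (0.969, 0.969 and 0.968), Cfp was most like Tlr2 (0.956), Mgst1 (0.952, a cMono marker of the gate) and Sqor (0.949), and Cfb was most like Gab1 (0.959), Shtn1 (0.939) and Ctnnd1 (0.934). B-like cells, left out of the 18 sums, held 534, 237 and 41 UMIs of Cr2 in the naive, D11 and D14 libraries. C3ar1, Cr2 and the summed C1q genes had 40, 71 and 3 UMIs over these sums. Their nearest genes were Ifi205, Itga1 and Xaf1 (0.686, 0.670 and 0.644), Sycp2, Gm6209 and Ifi27 (0.730, 0.717 and 0.713), and Mpo, Saa3 and Elane (0.910, 0.891 and 0.832), on too few UMIs to be read further.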

How the data were processed

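Sources were 10x 3′ v3 libraries of PB leukocytes, 1 per condition. The authors ran Cell Ranger and deposited filtered tables of raw UMI counts per gene and barcode. The submitters' notes name Cell Ranger 7.1.0 and the build mm10, whereas the table headers name 5.0.1. Of 32285 identifiers, 32235 were in GENCODE vM21, and 38 symbols named more than 1 identifier and were left out of counts over all genes. Totals were 30362408, 57640396 and 65861863 UMIs.

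Here, barcodes holding 200 or more genes with no more than 10% of UMIs from mitochondrial genes were sorted by marker gates into 12 classes (hemoglobin at 50% or more of UMIs gave erythroid-like), and UMIs were summed. Doublets were kept in the values reported. Intervals were exact Poisson, conditional binomial or Clopper-Pearson (scipy 1.17.1). Ratios against 0 UMIs used a floor of 3 counts. A member's leading class was that with its highest naive level among classes of at least 50 cells in each library. This excluded B-like cells, shown for Cr2 with a minimum of 40 cells chosen after seeing the data. Named genes were the 9 members, the 3 most like each, and complement genes reaching 50 CPM, of which 1 is not reported here. Alternatives were other filters, gates, denominators, thinning, TMM scaling (edgeR 4.0.16) and Scrublet (scanpy 1.11.5). Scripts were tested on simulated data. The members and lists were chosen with earlier results of these data known. With 1 library per condition no test was made.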

Additional observations from a re-analysis of the deposited data

Results flagged for a closer look

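The ratios of C5ar1 lay on opposite sides of 1 in different classes, and with 1 library per condition the difference between classes was not tested across samples. At D11 its ratio over naive was 3.17 in NK-like cells [1.25 to 9.04] and 0.731 in cMono-like cells [0.572 to 0.935]. At D14 it was 3.54 in T-like cells [2.004 to 5.97] and 0.924 in neutrophil-like cells [0.884 to 0.966]. The neutrophil-like direction turns with TMM scaling, to log2 ratios of 0.0321 and 0.0749. The log2 change of T-like minus that of neutrophil-like cells was 1.94, with a counting interval of 1.197 to 2.677 by normal approximation. The T-like and NK-like levels rested on 7 to 65 UMIs in the libraries compared, and at 4.45 to 18.7 CPM they did not exceed the 14.3 to 18.4 CPM of erythroid-like cells by more than counting error.

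The barcodes that the filter left out entered none of the class levels given above and served only in the C1q counts and in a recalculation over all deposited barcodes. In them C3 and C5ar1 were above their naive level at D14 and C5ar1 was below it at D11. C3 stood at 10.9 CPM in the 4923 left-out barcodes of D14 [9.28 to 12.7], against 2.79 CPM in the 1575 of naive blood [1.39 to 4.995]. C5ar1 stood at 37.2 CPM [34.1 to 40.4] against 27.9 CPM [22.9 to 33.6]. At D11, in 3969 left-out barcodes, C3 stood at 1.69 CPM [1.18 to 2.35] and C5ar1 at 9.86 CPM [8.55 to 11.3]. Of the left-out barcodes, 1064 of naive blood, 3407 of D11 and 3493 of D14 had fewer than 200 genes. Hemoglobin genes took 11.2%, 55.9% and 22.5% of all UMIs of these libraries, and their part in the levels of left-out barcodes was not tested.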

How the results depend on the processing

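With 1 library per condition, neither a replicate error nor a test was available, and counting intervals understate the spread between mice. No paired analysis was possible because each condition has 1 library. Of the recalculated changes over naive, 43 in a member's leading class and 53 in other classes stayed within their counting interval, among them those after removal of the 116 to 167 barcodes per library ranked highest by Scrublet. All of these kept their direction except Cfb in cMono-like cells, whose interval spans 0 and whose log2 ratio went from -0.17 to 0.0385 with a lead of 1 marker. The log2 ratio of C5ar1 in neutrophil-like cells (-0.11) turned to 0.0321 and 0.0749 with TMM factors over all genes and over genes averaging 10 CPM or more, which shifted every gene of the class by 0.15 and 0.19. That of Cr2 in B-like cells went from -1.06 to -1.98, and its D14 level from 98.9 to 52.2 CPM, when the gate needed a lead of only 1 marker, and the cause was not tested. Without ribosomal, mitochondrial and hemoglobin genes in the denominator, D14 levels were 519 CPM for C3 in cMono-like and 181 in ncMono-like cells, 72.8 for Cfb in ncMono-like cells and 775 for C5ar1 in neutrophil-like cells. As a mean over single cells they were 26.6 CPM for Cfb in cMono-like cells and 61.8 for Cfp and 798 for C5ar1 in neutrophil-like cells, and with the second TMM setting C5ar1 was at 778.

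Shares of cells followed the depth used, and cells shallower than that depth were left out of the thinned shares. Thinned to 1000 UMIs and not thinned, they were 30.3% and 97.2% for C3 in cMono-like cells, 13.9% and 63.2% in ncMono-like cells, 4.69% and 31.2% for Cfb in ncMono-like cells, and 49.2% and 80.1% for C5ar1 in neutrophil-like cells, which gave 73.8% with stricter barcode filters. Barcodes with C1q at D14 numbered 1 with 2 of its genes, 2 with any and 0 with all 3. Genes higher at D14 numbered 243, 340 and 439 in ncMono-like, cMono-like and neutrophil-like cells, 96, 133 and 178 at 3-fold, and 98, 90 and 167 with a mean of 50 CPM or more. In splits chosen after seeing the data, the C3 log2 ratio in neutrophil-like cells (1.68) was 1.37 among cells low in granule genes and -0.27 among those rich in them, and in ncMono-like cells (2.35) it was 4.48, against 1 UMI, among those low in cMono markers.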

Other observations

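In the 3 basophil-like cells of D14, C3 had 11 UMIs (273 CPM [136 to 489]), against 1 UMI in the 12 naive cells and 0 in the 15 cells of D11. In barcodes without a class C3 measured 44.1 CPM in naive blood, 71.1 at D11 and 57.1 at D14, and Cfb had 4, 5 and 45 UMIs there.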
